A study of Mus musculus with 6 samples.

Results

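Cathepsins and legumain are the main protein-degrading enzymes of the lysosome, and 10 of their genes were followed here in monocytes of mice with nephrotoxic nephritis, an antibody-driven glomerular inflammation. The genes were taken by symbol from 24047 rows of the deposited count table, and all 10 had a row: Lgmn, Ctsl, Ctss, Ctsb, Ctsk, Ctsd, Ctsh, Ctsc, Ctsz and Ctsa. Kidney libraries (labels double_pos, replicates 7, 8 and 22) were set against libraries of spleen and bone marrow (labels double, replicates 2, 24 and 26). Monocyte is a name for the prepared cells, and markers of other cell types in the libraries are given below. The series title asks how CCR2 and the TNF receptor TNFR2 of endothelium act when monocytes turn macrophage-like in inflamed vessels. All 6 libraries came from wild-type mice of the strain labelled C5/Bl6, aged 8 to 10 weeks, with nephritis and killed on day 13. The series used 10 mice. No library is from a healthy mouse, so tissue and disease cannot be told apart. Enrichment with a monocyte kit and sorting are described for the kidney only, so tissue and handling cannot be told apart either. The sort markers are not named, and the labels do not say whether a library is 1 animal or a pool, so the p-values cover only the spread among the libraries, which may be technical.

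Most cathepsins are cysteine proteases of the papain family, while cathepsin D is an aspartic protease, cathepsin A a serine carboxypeptidase and legumain an asparaginyl endopeptidase of the caspase clan. They are made as inactive precursors, carried to lysosomes largely by mannose 6-phosphate receptors, and become active by removal of a propeptide at acid pH. In phagocytes they digest engulfed material, and some of them cut the invariant chain and antigens for presentation on MHC class II. Cystatins and some serpins inhibit cysteine cathepsins among them. Endopeptidases cut inside a protein chain and exopeptidases trim its ends. Cathepsin B can do both and is counted here among the endopeptidases.

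The libraries held 3492391 (kidney replicate 22) to 9727489 counts (spleen and marrow replicate 26). The 10 genes took 1.14% to 1.31% of all counts in kidney libraries and 0.651% to 0.685% in spleen and marrow libraries. All 10 markers of monocyte and macrophage identity, among them Csf1r, Lyz2 and Cd68, were detected in every library, but not at equal levels. The edgeR test described below called 5 of them higher in kidney and 2 lower, against 7.83% and 5.9% of all tested genes. Ly6c2 was lower in kidney by a log2 fold of 3.11 (edgeR adjusted p = 0.00149), and Cx3cr1 was higher by 2.45 (edgeR adjusted p = 0.000761). Markers of resident tissue macrophages such as C1qa summed to 6007, 6588 and 5308 CPM (counts per 1000000 of the scaled library size) in kidney replicates 7, 8 and 22, against 244, 258 and 263 CPM in spleen and marrow replicates 2, 24 and 26. Kidney tubule markers summed to 610.2, 296 and 1406 CPM in kidney libraries, against 52.9, 31.5 and 30.7 CPM, where 11, 9 and 9 of the 16 markers were at 0. Endothelial markers were high in kidney replicate 8 alone, at 29.5, 926 and 22 CPM against 11.8, 7.52 and 9.11 CPM. Podocyte markers were highest in the same library, at 2.84, 68.2 and 5.87 CPM against 0.115, 0.137 and 0.107 CPM. Granule precursor and neutrophil markers came to 534, 1471 and 16522 CPM in kidney libraries and to 10711, 11633 and 12538 CPM in spleen and marrow. Sums of fibroblast and mural (2.61 to 9.86 against 0.115 to 0.684 CPM), dendritic cell (5.58 to 62.5 against 27.7 to 49.2), B cell (29.0 to 47.3 against 25.3 to 26.7), T and NK cell (4.98 to 28.2 against 79.2 to 116) and erythroid and platelet markers (12.9 to 58.1 against 6.78 to 7.39) were small. In these bulk samples, a change in the number of cells of a type and a change in RNA per cell cannot be told apart. Kidney replicate 22 stood apart, with Pearson correlations of log2 CPM over tested genes of 0.840 and 0.838 to the other kidney libraries, which correlated at 0.938. Spleen and marrow replicates 24 and 26 were the closest pair, whose counts differed by a chi-square over degrees of freedom of 2.95, against 23.5 to 64.6 for the other within-group pairs, and the calls that were lost with both summed into 1 library are named below.

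Transcripts of the endopeptidases Lgmn, Ctsl, Ctss, Ctsd and Ctsb were higher in the bulk kidney libraries by 1.62-fold to 8.71-fold. The exopeptidases Ctsh, Ctsz, Ctsa and Ctsc did not pass the test. The endopeptidase Ctsk was too low to be tested. Ctsb, at a log2 fold change of 0.69, lay between Ctsd (1.08) and Ctsh (0.45), and passing or not passing is not itself a test between the classes. Across the table, edgeR's quasi-likelihood test called 7.83% of 10626 tested genes higher in kidney and 5.9% lower (Benjamini-Hochberg adjusted p under 0.05). Of the 9 cathepsin and legumain genes tested, 5 were called higher and 0 lower. At an unadjusted p under 0.05, 8 were higher and 0 lower. DESeq2 also called 5 higher and 0 lower, against 11.5% and 8.25% of all genes it tested, and limma-voom 5 and 0, against 6.94% and 7.89%. Other settings called 2 to 6 of them higher: 3 with limma-trend on log2(FPKM + 1) and 3 on log2(FPKM + 0.1) (2.92% and 3.94% of all genes), 2 in a test against a log2 fold of 1 (3.5%), 6 with a stricter filter on low counts (8.41%), 4 with spleen and marrow replicates 24 and 26 summed (2.65%), and 4 to 6 on leaving out 1 library (2.31% to 14.3%). All 9 had a positive log2 fold change, as had 52.7% of all tested genes, and their median was 0.69 against 0.05 over all tested genes. The 3 kidney libraries lay above all 3 spleen and marrow libraries for 7 of the 10 genes, which holds for 19.2% of tested genes. By mean level, each of the 9 ranked above 95.6% of tested genes. The summed level of all 10 was 12243 ± 676 CPM in kidney libraries and 6845 ± 259 CPM in spleen and marrow (n = 3 each, mean ± SD), a log2 ratio of 0.84 (two-sided exact permutation p = 0.1, the smallest that 3 against 3 libraries can give).

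**Figure D1:**
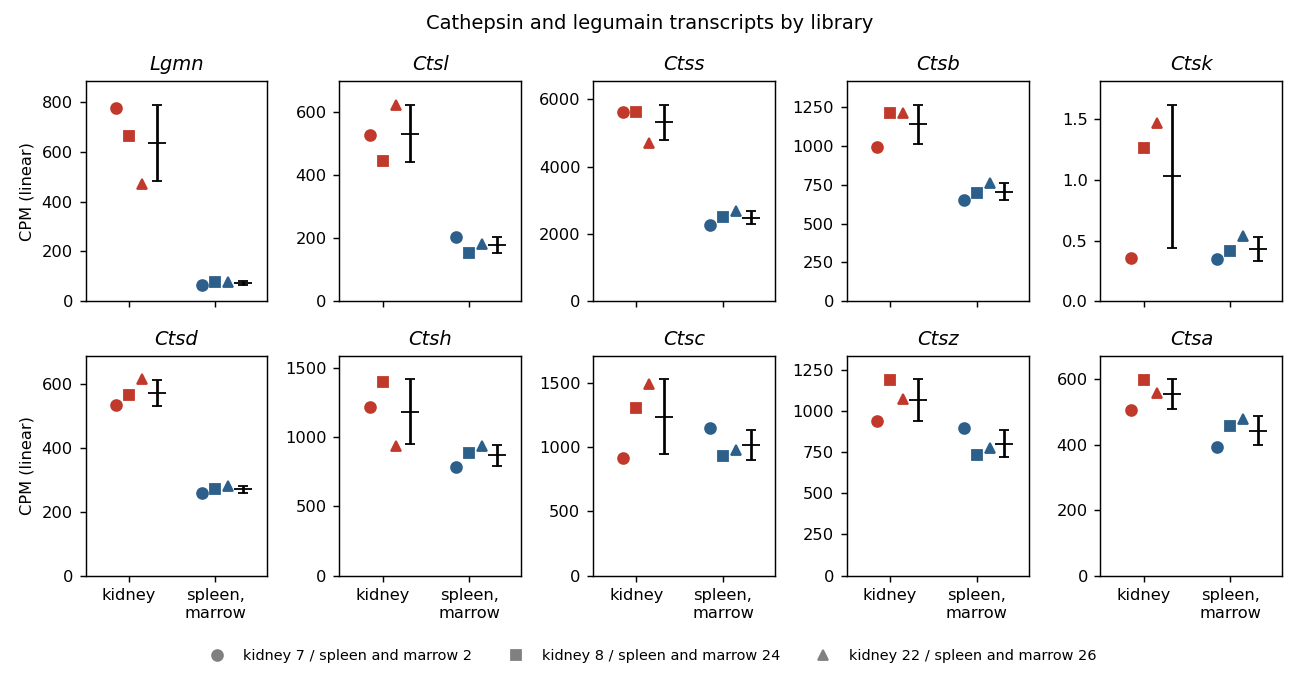
Level of each of the 10 genes in CPM (linear axis from 0, own scale per panel) in kidney (red, left) and spleen and marrow (blue, right) libraries, 1 symbol per library, with mean ± SD in black (n = 3 each). Symbols name libraries in the legend and pair none. For Lgmn, Ctsl, Ctss, Ctsb, Ctsd, Ctsz and Ctsa every kidney library lies above every spleen and marrow library.

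Legumain, which cleaves after asparagine and matures several cathepsins, differed most. Lgmn had 776, 662 and 472 CPM in kidney replicates 7, 8 and 22, against 65.8, 76.5 and 77.2 CPM in spleen and marrow replicates 2, 24 and 26. The groups were far apart, and the kidney libraries spread more among themselves (coefficient of variation 24.1%) than the spleen and marrow libraries (8.71%). The log2 fold change was 3.12 ± 0.21 (SE), with an edgeR adjusted p of 0.000387. Of all tested genes, 96.7% had a smaller log2 fold change. Lgmn is also a gene of the kidney tubule, and the tubule marker sum in the kidney libraries was 610.2, 296 and 1406 CPM, so that Lgmn was lowest in the library with the most tubule transcripts. Of 11 resident macrophage markers, 10 were called higher in kidney, against 7.83% of all tested genes. The part of tubule or macrophage transcripts in the level of Lgmn was not tested.

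The cysteine endopeptidase cathepsin L is active in lysosomes of many cell types and trims the invariant chain in thymic epithelium. Ctsl measured 526, 443 and 623 CPM in kidney replicates 7, 8 and 22 and at 201.9, 153 and 180.5 CPM in spleen and marrow replicates 2, 24 and 26. All kidney values exceeded all others, and replicate 22 was the highest, unlike for Lgmn. Ctsl rose by a log2 fold of 1.57 ± 0.18 (edgeR adjusted p = 0.00169). Ctsl and the tubule marker sum (610.2, 296 and 1406 CPM) had the same order over the kidney libraries, and the part of tubule transcripts in the level was not tested. Without replicate 22 the log2 fold change was 1.42 (edgeR adjusted p = 0.00121). Kidney replicates 7 and 8, which remain in that fit, also had tubule sums above the 30.7 to 52.9 CPM of spleen and marrow. Ctsl shares exon sequence with the antisense gene Gm47123 over 1742 bases in GENCODE vM21 (GRCm38), and these libraries do not mark strand, so reads of both cannot be told apart. The processed pseudogene Gm49230 overlaps Ctsl over 395 bases on the same strand. Neither of these genes was analysed here.

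Cathepsin S, the cysteine endopeptidase that completes invariant chain removal in macrophages, B cells and dendritic cells, is active also at neutral pH. Its gene was the most abundant of the set. Ctss had 5626, 5614 and 4714 CPM in kidney libraries, in the same order of replicates, against 2266, 2511 and 2674 CPM in spleen and marrow libraries. No kidney library came near the other group, and the spread was narrow (9.83% and 8.28% coefficients of variation). Its log2 fold change of 1.10 ± 0.13 corresponded to 2.14-fold (edgeR adjusted p = 0.00176). On the log2(FPKM + 1) scale with limma-trend the change was 0.98 and the adjusted p 0.0694, where the FPKM of kidney replicate 22 was 1362 against 2254 and 2330 in replicates 7 and 8.

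Cathepsin B, which acts as an endopeptidase and as a carboxydipeptidase, showed the smallest change among the called genes. Ctsb had 994, 1215 and 1211 CPM in kidney replicates 7, 8 and 22, against 653, 699 and 763 CPM in spleen and marrow replicates 2, 24 and 26. The groups did not overlap, and the nearest libraries, kidney replicate 7 and spleen and marrow replicate 26, stood at 994 and 763 CPM. The log2 fold change was 0.69 ± 0.13 (edgeR adjusted p = 0.0137). This call was lost without spleen and marrow replicate 2, 24 or 26 (edgeR adjusted p = 0.0640, 0.0784 and 0.0634) and with replicates 24 and 26 summed (0.0702). It held without kidney replicate 7, 8 or 22 (edgeR adjusted p = 0.0125, 0.0424 and 0.0209). On log2(FPKM + 1) limma-trend gave an adjusted p of 0.109.

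Cathepsin K, the collagen-degrading enzyme of osteoclasts, was barely detected and did not pass the filter on low counts. Ctsk had 3, 10 and 5 counts in kidney libraries and 3, 3 and 5 counts in spleen and marrow libraries. These pool to a kidney over spleen and marrow ratio of 2.10 with a 95% exact interval of 0.939 to 4.92, which covers counting error only. A difference was not detectable at this depth, where 3 counts correspond to 0.322 to 0.881 CPM in a library.

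Cathepsin D, the aspartic endopeptidase of the lysosome, had the steadiest values of all 10 genes. Ctsd measured 534, 564 and 615 CPM in kidney replicates 7, 8 and 22 and at 258, 272 and 279.7 CPM in spleen and marrow replicates 2, 24 and 26. Coefficients of variation were 7.18% and 4.06%, and the groups were separated by more than the range within either. It rose by a log2 fold of 1.08 ± 0.12, or 2.12-fold, with an edgeR adjusted p of 0.00171. The readthrough gene Gm49369, which shares 808 exon bases with Ctsd on the same strand in GENCODE vM21, was not analysed here.

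The exopeptidases were abundant in both groups and differed less. Ctsh encodes an aminopeptidase, and had 1219.8, 1401 and 936 CPM in kidney replicates 7, 8 and 22, against 787, 886 and 938 CPM in spleen and marrow replicates 2, 24 and 26. Kidney replicate 22 fell within the other group, and the log2 fold change of 0.45 ± 0.17 missed the edgeR threshold (adjusted p = 0.128). Without kidney replicate 22 it was 0.57 with an edgeR adjusted p of 0.0251. Ctsz encodes a carboxypeptidase, cathepsin Z or X, and stood at 939.9, 1192 and 1074 CPM in kidney libraries and at 896, 736 and 778 CPM in spleen and marrow libraries. Its groups did not overlap, and its log2 fold change was 0.41 ± 0.14 (edgeR adjusted p = 0.0950). With the stricter filter on low counts, which tests fewer genes, Ctsz passed at 0.50 (edgeR adjusted p = 0.0490).

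Cathepsin C, a dipeptidyl peptidase, activates the serine proteases of neutrophil, mast cell and cytotoxic granules. Ctsc was at 917, 1306 and 1490.0 CPM in kidney replicates 7, 8 and 22 and at 1152, 931 and 974 CPM in spleen and marrow replicates 2, 24 and 26. The groups overlapped, since kidney replicate 7 held the lowest value of all 6 libraries and kidney replicate 22 the highest. The log2 fold change of 0.28 ± 0.19 had an edgeR adjusted p of 0.390. Granule precursor and neutrophil transcripts had the same order over the kidney libraries (534, 1471 and 16522 CPM). In spleen and marrow replicates 2, 24 and 26 they summed to 10711, 11633 and 12538 CPM, not in the order of Ctsc. Their part in the level of Ctsc was not tested. Ctsa encodes a serine carboxypeptidase that also stabilises lysosomal β-galactosidase and neuraminidase. It had 506, 599 and 557 CPM in kidney libraries and 392.2, 457 and 478 CPM in spleen and marrow libraries, without overlap. Its log2 fold change was 0.32 ± 0.13 (edgeR adjusted p = 0.162). Of the 4 exopeptidase genes, 0 were called by edgeR, DESeq2 or limma-voom, and 3 were higher at an unadjusted p under 0.05. Reads of Ctsa cannot be told from those of Pltp and Neurl2 on the other strand, over 495 and 324 shared exon bases. Pltp, named for this overlap, stood at 89.8 ± 38.3 CPM in kidney libraries and 22.8 ± 2.36 CPM in spleen and marrow libraries (mean ± SD, n = 3 each). Ctsb overlaps Fdft1 over 774 bases, which stood at 12.3 ± 2.01 against 14.5 ± 0.814 CPM.

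**Figure D2:**
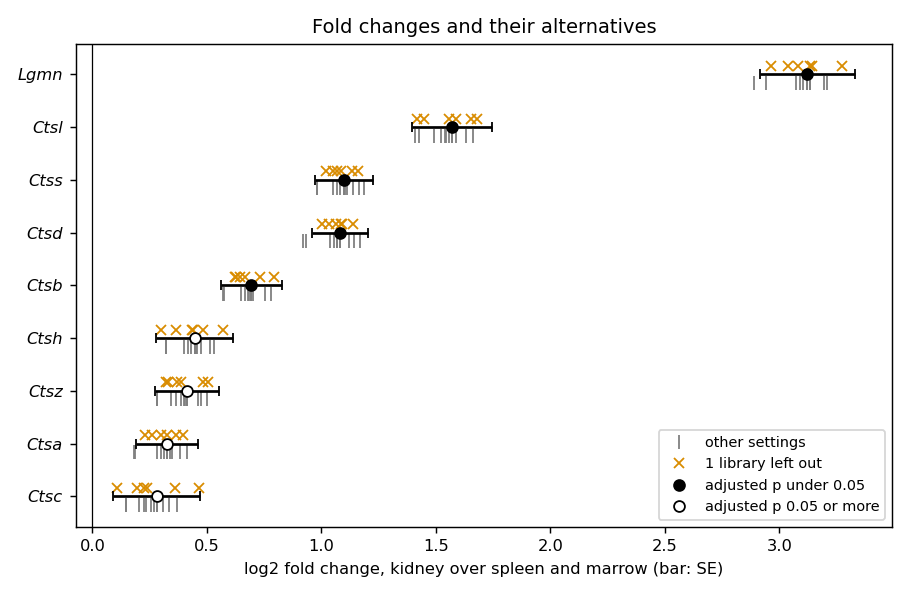
Log2 fold change, kidney over spleen and marrow, of the 9 tested genes (circles, filled where the edgeR adjusted p was under 0.05, bars SE), with values after leaving out 1 library (orange crosses) and under the other settings (grey ticks). Lgmn lies near 3.12, Ctsl near 1.57, Ctss and Ctsd near 1.1, and the 4 open circles between 0.28 and 0.45.

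Under leaving out 1 library in turn, Lgmn, Ctsl, Ctss and Ctsd stayed called in edgeR each time, with log2 fold changes of 2.96 to 3.27, 1.42 to 1.68, 1.02 to 1.16 and 1.0 to 1.14 and adjusted p of at most 0.00798, 0.0192, 0.0185 and 0.0212. The endopeptidase and exopeptidase genes were also set against each other within each library. The mean log2 CPM of the 5 tested endopeptidase genes minus that of the 4 exopeptidase genes was 0.28, -0.06 and 0.07 in kidney replicates 7, 8 and 22 and -1.11, -1.03 and -1.01 in spleen and marrow replicates 2, 24 and 26. The scaling between libraries cancels in this value, while gene length cancels only in its difference between groups. All kidney libraries lay above all others by more than the spread within groups. The difference between group means was 1.15 on the log2 scale (two-sided exact permutation p = 0.1, the smallest possible). The genes were grouped by enzyme class with their values known, and the 5 tested endopeptidase genes had the 5 largest log2 fold changes. A gap was thus fixed in advance, and its p is no test of enzyme class. Within the endopeptidases, Lgmn had the largest log2 fold change and was set against Ctsl and Ctsd with this known. The log2 ratio of Lgmn to Ctsl CPM was 0.56, 0.58 and -0.40 in kidney and -1.62, -1.0 and -1.23 in spleen and marrow. That of Lgmn to Ctsd CPM was 0.54, 0.23 and -0.38 against -1.97, -1.83 and -1.86 (exact permutation p = 0.1 for each, the smallest possible). The direction of these gaps was also fixed by the choice of Lgmn, so their p is no test.

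Levels between genes were compared per length, on the authors' FPKM scale (fragments scaled for transcript length and library size). Ctss led in every library, with 1982 ± 538 FPKM in kidney and 981 ± 92.1 FPKM in spleen and marrow libraries (mean ± SD, n = 3 each). Ctsh (409 ± 144 FPKM) and Ctsz (359 ± 90.7) followed in kidney and did not differ beyond their spread, and in spleen and marrow the same genes stood at 313 ± 29.9 and 289.6 ± 26.7 FPKM. Next in kidney came Ctsc (204 ± 40.8 FPKM) and Lgmn (171 ± 68.6), also within their spread. Ctsd (125 ± 21.2), Ctsl (124 ± 11.6) and Ctsb (101.4 ± 18.2 FPKM) formed a group without clear order in kidney, above Ctsa (77.8 ± 16.3) by little more than the spread. In spleen and marrow, Ctsc (182 ± 20.1 FPKM) was followed by Ctsa (67.7 ± 7.09), Ctsb (67.4 ± 6.04) and Ctsd (65.1 ± 3.31), which did not differ beyond their spread, then by Ctsl (46.4 ± 5.82) and Lgmn (20.8 ± 1.66). Lgmn thus ranked 4, 5 and 7 among the 10 genes in kidney replicates 7, 8 and 22 and 9 in each spleen and marrow library. Ctsk was last in every library, at most 0.604 FPKM and listed at 0 in kidney replicate 22. The order of the middle genes depends on the length used. By counts per coding length, Ctsb made 8.67% to 11.0% of the 10 genes in kidney libraries and 10.4% to 11.3% in spleen and marrow libraries, against 2.47% to 3.41% and 3.16% to 3.43% by FPKM.

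As shares of the summed FPKM of the 10 genes, which do not depend on scaling between libraries, Ctss made 58.3%, 54.8% and 53.5% in kidney replicates 7, 8 and 22 and 45.5%, 49.5% and 49.6% in spleen and marrow replicates 2, 24 and 26. Every kidney share was above every spleen and marrow share. Lgmn made 5.60%, 4.81% and 3.62% in kidney and 0.973%, 1.07% and 1.02% in spleen and marrow. Ctsl (3.64% ± 0.874 against 2.29% ± 0.342) and Ctsd (3.59% ± 0.378 against 3.20% ± 0.0460) also had larger shares in kidney (mean ± SD, n = 3 each). Ctsz (10.2% ± 1.02 against 14.3% ± 1.89), Ctsh (11.3% ± 1.33 against 15.4% ± 0.818), Ctsc (5.96% ± 1.74 against 9.0% ± 1.36) and Ctsa (2.21% ± 0.206 against 3.32% ± 0.205) had smaller ones, although their CPM was not lower. For these 8 genes the two-sided exact permutation p was 0.1, the smallest possible, and 0.125 after adjustment over the 10 genes. Ctsb (2.91% ± 0.468 against 3.31% ± 0.134, exact p = 0.3) and Ctsk (exact p = 1) overlapped between groups. All endopeptidase genes together made 73.3%, 68.7% and 69.1% in kidney libraries and 55.4%, 59.1% and 59.5% in spleen and marrow libraries. Leaving Ctss out of the sum gave 35.9%, 30.8% and 33.6% against 18.3%, 19.1% and 19.6%.

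**Figure D3:**
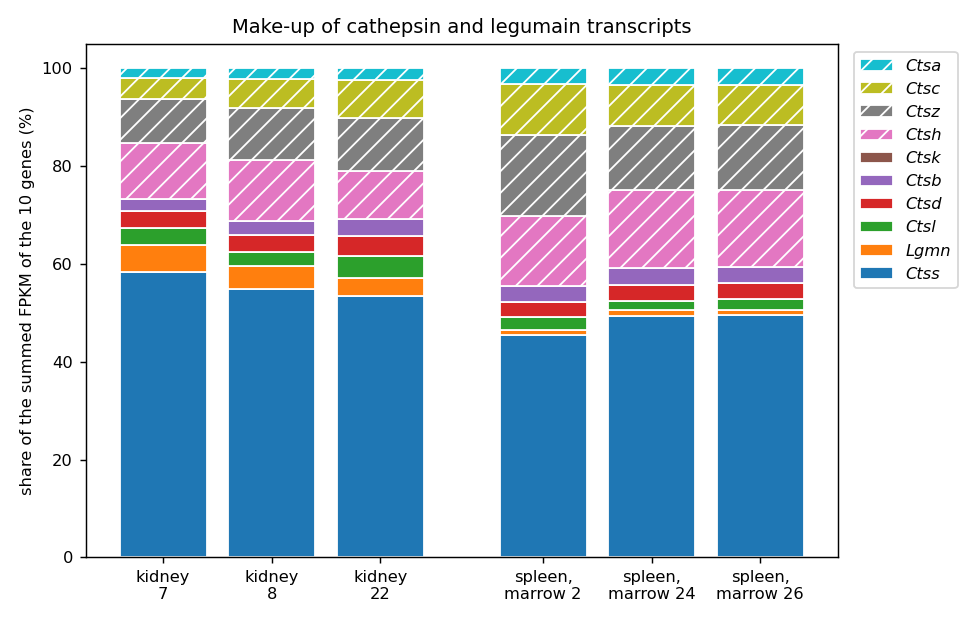
Share of each gene in the summed FPKM of the 10 genes (bars stack to 100%) in the 3 kidney libraries (left) and the 3 spleen and marrow libraries (right), with exopeptidase genes hatched. Unhatched endopeptidase genes make 68.7% to 73.3% in kidney and 55.4% to 59.5% in spleen and marrow, and Lgmn is the orange layer that is thin on the right.

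Inhibitors did not move as a block. Of 12 tested genes of cystatins and other cathepsin inhibitors, 3 rose and 1 fell in edgeR, against 7.83% and 5.9% of all tested genes. Their median log2 fold change was 0.62 against 0.05 over all tested genes. Cst3, which encodes the secreted inhibitor cystatin C, reached 3372, 3812 and 3283 CPM in kidney libraries and 3219, 3069 and 3265 CPM in spleen and marrow replicates 2, 24 and 26. Its log2 fold change was 0.13 ± 0.11 (edgeR adjusted p = 0.485), and it is named as the most abundant inhibitor after its values were seen. Cst7 encodes cystatin F, an inhibitor in immune cell granules that acts on cathepsin C, and had 1.90, 3.41 and 3.52 CPM in kidney libraries and 87.1, 38.3 and 42.4 CPM in spleen and marrow. It fell by 4.28 ± 0.44 on the log2 scale (edgeR adjusted p = 0.00132) and stayed called without any 1 library. Serpina3g, a serpin that inhibits cathepsin B in the cytosol, rose by 2.84 ± 0.35 (51.4, 94.3 and 122 CPM against 15.4, 10.3 and 11.5 CPM, edgeR adjusted p = 0.00243).

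Cstb, the gene of the cytosolic inhibitor stefin B, rose by a log2 fold of 0.68 ± 0.15 (edgeR adjusted p = 0.0236). That call was lost without spleen and marrow replicate 24 or 26 or kidney replicate 8 (edgeR adjusted p = 0.118, 0.132 and 0.0685). The stefin A family gene 2010005H15Rik had 40 counts in kidney and 1 in spleen and marrow, a ratio of 51.3 that rests on that single count (95% exact interval 8.70 to 2077, counting error only). It was not called without any 1 spleen and marrow library. Genes of the stefin A family are close in sequence, so its value is uncertain. Without spleen and marrow replicate 24 or 26, only 1 inhibitor gene rose, where 2.53% and 2.31% of all tested genes were called higher. Without kidney replicate 22, 2 fell, where 11.1% of all tested genes were called lower. The summed FPKM of the 7 cysteine cathepsins over that of Cst3 and Cstb was 0.876, 0.819 and 0.781 in kidney libraries and 0.520, 0.586 and 0.594 in spleen and marrow libraries. The ratio was higher in all 3 kidney libraries (two-sided exact permutation p = 0.1, the smallest possible), with both inhibitors chosen after their values were seen.

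Other peptidases were read from short lists, with 4 and 5 tested genes, where edgeR called 7.83% of all tested genes higher and 5.9% lower. In lists this short, 0 genes called higher is near that share and no result about them. Of 4 tested genes among 14 other cathepsins, 0 rose in edgeR (2 at an unadjusted p under 0.05, 2 by DESeq2 and 1 by limma-voom) and 1 fell. That was Ctsg, a serine protease of neutrophil granules, at 0.474, 9.98 and 58.1 CPM in kidney against 707, 290.2 and 314 CPM in spleen and marrow (log2 fold change -4.36 ± 1.19, edgeR adjusted p = 0.0485). Leaving out kidney replicate 8 or any of the spleen and marrow libraries ended this call (edgeR adjusted p up to 0.170). Without kidney replicate 7, 1 of the other cathepsin genes rose and 2 fell, against 8.15% and 4.48% of all tested genes. Without kidney replicate 22, 2 rose, where 14.3% of all tested genes were called higher. The 9 cathepsin genes Ctsj, Ctsm, Ctsq, Ctsr, Cts3, Cts6, Cts7, Cts8 and Ctsll3, most of them known from placenta, were at 0 counts in all 6 libraries. Of 5 other lysosomal peptidases, 0 rose (2 at an unadjusted p under 0.05, and 0 by DESeq2 and limma-voom) and 1 fell, with a median log2 fold change of 0.42. Napsa, which encodes the aspartic protease napsin A, was at 562, 463 and 560.3 CPM in kidney libraries and 756, 879.6 and 921 CPM in spleen and marrow, and its log2 fold change was -0.69 ± 0.14 (edgeR adjusted p = 0.0165). It was not called without spleen and marrow replicate 24 or 26 (edgeR adjusted p = 0.0776 and 0.0927). The aspartic proteases Ctsd and Napsa thus stood on opposite sides, each without overlap between groups.

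Genes that sort lysosomal enzymes and acidify lysosomes were called in both lists, where 7.83% of all tested genes were higher and 5.9% lower. Of 16 tested V-ATPase subunit genes, 2 rose and 0 fell (0 lower at an unadjusted p under 0.05, and 0 by DESeq2 and limma-voom), with a median log2 fold change of -0.08. These were Atp6v0a1 (1.38 ± 0.23, edgeR adjusted p = 0.00823) and Tcirg1 (1.19 ± 0.26, edgeR adjusted p = 0.0218), which encode alternative forms of the large membrane subunit a. Neither was called without any 1 spleen and marrow library, and Tcirg1 not without kidney replicate 7. Of 15 tested genes for sorting lysosomal enzymes, 1 rose and 2 fell, with a median of 0.23. Igf2r, the larger mannose 6-phosphate receptor, rose by a log2 fold of 3.0 ± 0.54 (edgeR adjusted p = 0.0111) at low levels of 6.40, 4.30 and 5.58 against 0.574, 0.547 and 0.857 CPM. The smaller receptor M6pr, named after its values were seen, stood at 0.23 ± 0.17 (edgeR adjusted p = 0.425). Sort1, which encodes the sorting receptor sortilin, fell by 1.43 ± 0.25 on the log2 scale and the adaptor gene Ap1m1 by 0.95 ± 0.17 (edgeR adjusted p = 0.0101 and 0.0114). None of these was called without spleen and marrow replicate 24 or 26, and without replicate 2 Ap1m1 was (edgeR adjusted p = 0.0402).

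Among 4 transcription factors of lysosome genes, Mitf rose by a log2 fold of 2.00 ± 0.47 (edgeR adjusted p = 0.0283, and 0.110 to 0.139 on leaving out 1 of the spleen and marrow libraries). Tfeb, named after its values were seen, stood at -0.03 ± 0.23 (edgeR adjusted p = 0.957). Of 9 tested partners in class II processing, 6 rose and 1 fell, against 7.83% and 5.9% of all tested genes, with a median of 1.96. H2-Eb1, Cd74 and H2-Ab1 rose by log2 folds of 4.29 ± 0.34, 3.52 ± 0.35 and 3.76 ± 0.41 (edgeR adjusted p = 0.000634, 0.00117 and 0.00149). Cd74 encodes the invariant chain, the substrate of cathepsin S, and had 4141, 9335 and 4972 CPM in kidney libraries and 706, 420.2 and 478 CPM in spleen and marrow. It was highest in kidney replicate 8, where endothelial markers summed to 926 CPM, against 29.5 and 22 CPM in kidney replicates 7 and 22. Ctss was about as high in replicate 7 as in replicate 8. The part of endothelial transcripts in either level was not tested. Ifi30, the lysosomal thiol reductase that unfolds antigens, fell by 0.45 ± 0.12 on the log2 scale (880.1, 961 and 953 CPM against 1374, 1189 and 1247 CPM, edgeR adjusted p = 0.0415). That call held without kidney replicate 22 and was lost on leaving out any other library (edgeR adjusted p up to 0.139).

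Substrates of these enzymes were looked at in 2 further lists, where edgeR called 7.83% of all tested genes higher and 5.9% lower. Of 6 genes for granule enzymes, most of them proteases that cathepsin C activates, 2 fell and 0 rose (0 higher at an unadjusted p under 0.05, and 0 by DESeq2 and limma-voom). Prtn3, the gene of proteinase 3, was at 30.1, 39.7 and 109 CPM in kidney libraries and 1171, 627 and 669 CPM in spleen and marrow (log2 fold change -3.81 ± 0.53, edgeR adjusted p = 0.00400), and Ctsg was the other. The list median was -3.85. Without kidney replicate 22, 4 fell, where 11.1% of all tested genes were called lower. Leaving out any 1 spleen and marrow library left 1 that fell, where 1.59% to 1.84% of all tested genes were called lower. Leaving out kidney replicate 8 also left 1, against 5.38% of all tested genes. Of 7 matrix genes, 3 were tested and 2 rose, Sparc and Col4a1 (log2 fold changes 9.34 ± 1.87 and 5.69 ± 1.39, edgeR adjusted p = 0.0159 and 0.0335), and both calls were lost on leaving out any 1 spleen and marrow library and under limma-voom, with that of Col4a1 also lost without kidney replicate 8 (edgeR adjusted p = 0.0522). Sparc had 40.2, 1176 and 29.7 CPM in kidney replicates 7, 8 and 22, beside endothelial marker sums of 29.5, 926 and 22 CPM. The part of endothelial transcripts was not tested.

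With spleen and marrow replicates 24 and 26 summed into 1 library, several of the called genes named from these lists no longer passed in edgeR. They were Cstb, 2010005H15Rik, Ctsg, Napsa, Igf2r, Sort1, Ap1m1, Atp6v0a1, Tcirg1, Mitf, Ifi30, Sparc and Col4a1, with edgeR adjusted p of 0.0607 (Atp6v0a1) to 0.131 (Col4a1) and the same directions. Cst7, Serpina3g, H2-Eb1, Cd74, H2-Ab1 and Prtn3 stayed called (edgeR adjusted p of at most 0.0239).

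**Figure D4:**
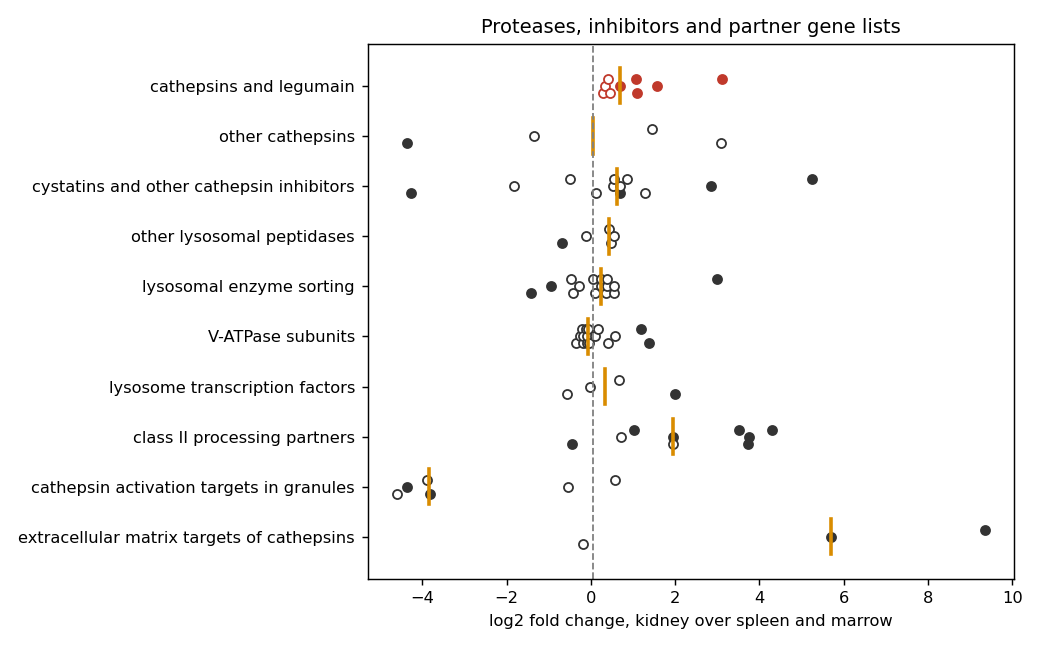
Log2 fold change, kidney over spleen and marrow, of every tested gene in each list (filled where the edgeR adjusted p was under 0.05, cathepsins and legumain in red), with the list median as an orange bar and the median of all 10626 tested genes as a dashed line at 0.05. The cathepsin and legumain genes lie to the right of 0, while the V-ATPase genes scatter around it.

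Promoters of the genes were read from a RefSeq table of build GRCm38.p6, from 250 bases before to 50 after each start site. The authors' processing notes name build mm9, so these positions do not apply to their alignments. The table holds 10 start sites of 8 of the genes, and Ctsb and Ctsh are named only. The E-box CACGTG, the centre of the motif through which TFEB and MITF family factors bind lysosome genes, was searched together with TCACGTG, which contains it, and with the ETS type motif AGGAAGT of the myeloid factor PU.1, each on both strands. CACGTG lay in a promoter of 4 of the 8 genes, against 8.09% of 27025 genes in the table. They are Ctsd, Ctsl and Lgmn, which rose, and Ctsa, which was not called. TCACGTG lay in 3 of the 8 (Ctsd, Lgmn and Ctsa), against 4.29% of all genes. AGGAAGT lay in Ctss and Ctsc, against 10.7% of all genes. Windows around these matches are printed 5′ to 3′ on the gene's strand, to show how the E-box context differs between genes, with capitals marking the CACGTG or, in Ctss, the AGGAAGT match read on the other strand.
Ctsd, chr7:142387890-142387955, minus strand: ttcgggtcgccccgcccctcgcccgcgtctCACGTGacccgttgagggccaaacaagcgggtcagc
Ctsa, second start site, chr2:164833731-164833796, plus strand: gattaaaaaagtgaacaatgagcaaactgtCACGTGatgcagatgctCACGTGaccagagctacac
Lgmn, second start site, chr12:102439106-102439171, minus strand: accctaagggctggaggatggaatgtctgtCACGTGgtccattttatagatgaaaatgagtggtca
Ctsl, chr13:64370721-64370770, minus strand: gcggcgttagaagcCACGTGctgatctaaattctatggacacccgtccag
Ctss, chr3:95526754-95526820, plus strand: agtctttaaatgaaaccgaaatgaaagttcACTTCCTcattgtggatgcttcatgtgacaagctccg
Ctsd carries 2 E-boxes, 245 and 98 bases before the start site, of which the window shows the nearer, and Lgmn 1, 49 bases before the second of its start sites, while the first start site of Lgmn holds none of the 3 motifs. Ctsa, whose level did not pass the test, also holds 2 E-boxes, around its second start site. A match describes these letters and shows no binding, and no match says only that the letters are not in this window.

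The genes most like Lgmn over the 6 libraries, by Pearson's r of log2 CPM among 5649 genes whose mean log2 CPM reached 4, were Cysltr1 (r = 0.996), Klf7 (0.996), Ecm1 (0.996), Ctss (0.996) and Fcgr2b (0.995). Their log2 fold changes were 1.37, 1.19, 2.94, 1.10 and 1.29. The libraries form separate clusters by group here, so each r also holds the difference between groups, and the values are a description only. Most like Ctsc, the gene with the smallest fold change, were Dynll2 (r = 0.998), Tmed1 (0.998), Cops7a (0.986), Trnau1ap (0.981) and Ifnar2 (0.979), with log2 fold changes of 0.46, 0.34, 0.38, 0.25 and 0.11.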

How the data were processed

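Per the labels' protocols, RNA (2 ng) went into SMART-Seq v4 reactions and ThruPLEX libraries with 150 bp mean shear length. The authors deposited raw counts per gene symbol and FPKM values, which are scaled for depth and transcript length. The submitters' processing notes name bcl2fastq 2.18, STAR 2.5, Cufflinks 2.2.1 and build mm9 with no role. The counting program is not given in the sources used here. Counts were filtered with filterByExpr, scaled with TMM and tested with edgeR 4.0.16 (glmQLFit and glmQLFTest, two-sided) in R 4.3.3, over 10626 genes with Benjamini-Hochberg adjustment and a threshold of 0.05. The SE was taken as the log2 fold change over the square root of the F statistic. CPM uses TMM-adjusted library sizes. Spike-in rows held 0 counts. Code was tested on simulated data.

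Members and lists were chosen with earlier results of these data known. Named genes are all 10 members and, per list, up to 3 called genes per direction by p, with exceptions stated where named. Alternatives used DESeq2 1.42.0, limma 3.58.1 (voom, and trend on log2(FPKM + 1) or log2(FPKM + 0.1)), RLE or library size scaling, no filter or at least 50 counts in 3 libraries, a robust fit, a threshold of 0.01, a test against a log2 fold of 1, thinning, a sum of 2 libraries and leaving out each library. Figures used matplotlib 3.10.9.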

Additional observations from a re-analysis of the deposited data

How the results depend on the processing

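All 9 tested genes kept a positive log2 fold change under each of 19 alternatives, and none was called lower. The number called higher was 5 with edgeR, 3 with limma-trend on log2(FPKM + 1) and 3 on log2(FPKM + 0.1) (Lgmn, Ctsl and Ctsd), and 2 in a test against a log2 fold of 1 (Lgmn and Ctsl). The cause was not tested for the FPKM scale. Leaving out 1 library gave 4 to 6. Lgmn and Ctsl passed in all 19 alternatives, with log2 fold changes of 2.89 to 3.27 and 1.41 to 1.68. The share of Ctsk, at most 0.0142% of the 10 genes, differed by -0.000591 percentage points (kidney minus spleen and marrow), by 0.00233 with counts per coding length, and by -0.00493 to 0.00218 on leaving out 1 library. The summed level kept its direction (log2 ratio 0.77 to 0.93), as did the other shares and ratios. Shares per RefSeq protein length were not run, and GENCODE coding length was chosen after seeing the data in its place, as were the ratios between genes and enzyme classes. No paired analysis was possible because the groups share no replicate number. The median log2 fold change of all tested genes was 0.05 with edgeR, 0.11 with library size scaling and 0.21 with DESeq2, which tested more genes. Depth limits the value of Ctsk, and every result rests on 3 libraries per group.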
